A study of Homo sapiens with 9 samples.

Results

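The 4 protease-activated receptor genes F2R, F2RL1, F2RL2 and F2RL3 were examined in VCaP cells after silencing of CDO1, together with THBS1, which encodes thrombospondin-1, and RASGRP2, which encodes an exchange factor for Ras-like GTPases. The 6 genes were taken by name from the 58735 genes of the count table. F2R, THBS1 and RASGRP2 were selected on the differences measured in these same libraries between the CDO1 siRNAs and siCtrl, and their values in those comparisons are therefore given as a description without a test. Of the 6 genes, 4 were expressed, in that they were kept by the filter on low counts with which 15555 genes were tested, namely F2R, F2RL1, THBS1 and RASGRP2. F2RL2 and F2RL3 were not.

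Protease-activated receptors are G protein-coupled receptors without a free ligand. A serine protease cuts the extracellular end of the receptor, and the new end then folds back and activates it. F2R encodes PAR1, the main thrombin receptor of human platelets, F2RL1 encodes PAR2, which is cut by trypsin and trypsin-like proteases, F2RL2 encodes PAR3, which can act as a thrombin-binding cofactor, and F2RL3 encodes PAR4, a further thrombin receptor of platelets. Prostate epithelium secretes kallikreins, some of which can cut these receptors. Thrombospondin-1 is a secreted matrix glycoprotein that platelets release when activated, that binds CD36, CD47 and integrins and that can activate latent TGF-beta. RASGRP2 responds to calcium and diacylglycerol, loads the GTPase Rap1 with GTP and is required for integrin activation in platelets.

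VCaP is an established prostate cancer cell line, and all cells were grown in DMEM with 10% fetal bovine serum, penicillin, streptomycin and 2 nM DHT, an androgen. Cells labelled WT received a control siRNA (siCtrl), and cells labelled CDO1 knockdown received 1 of 2 siRNAs to CDO1, the gene of cysteine dioxygenase, siCDO1A or siCDO1C. There were 3 libraries per group, which the labels call biological replicates and place in batches 1 to 3, with 12061295 to 16073698 counts each. CDO1 had 182, 177 and 220 counts in siCtrl, 40, 30 and 33 in siCDO1A and 16, 37 and 14 in siCDO1C cells, so that each siRNA library lay below each siCtrl library. The control siRNA is the only siRNA that does not target CDO1. Loss of CDO1 can therefore not be told apart from other effects that both CDO1 siRNAs share, or from effects of the control siRNA itself. The number of genes called depended on single libraries. Between siCDO1A and siCtrl it was 2309, and from 1292 (without siCtrl replicate 2) to 3454 (without siCDO1A replicate 3) when 1 library was left out. Between siCDO1C and siCtrl it was 742, and from 263 (without siCtrl replicate 3) to 2068 (without siCDO1C replicate 2). All 9 genes on the list of prostate luminal markers were expressed. They included KLK3, and also ERG, which encodes an ETS family factor and is not itself a luminal marker. The summed level of the 7 endothelial markers was 2.07 to 5.14 CPM (counts scaled to the TMM-adjusted total of the genes tested in a library) in siCtrl libraries, 4.16 to 5.33 CPM in siCDO1A libraries and 3.96 to 5.14 CPM in siCDO1C libraries, with 1 of them at 0 throughout. The 8 platelet markers summed to 2.23 to 3.29, 1.92 to 3.76 and 2.72 to 3.58 CPM, with 3 at 0 throughout. The 6 leukocyte markers summed to 1.83 to 2.42, 1.80 to 4.52 and 1.44 to 2.97 CPM, with 1 at 0 throughout, and the 7 fibroblast markers summed to 17.3 to 21.4, 19.9 to 22.9 and 14.0 to 17.9 CPM, with 1 at 0 throughout. Most of the last sum came from LUM, which encodes lumican and had 16.8 ± 1.43, 17.1 ± 1.31 and 12.2 ± 1.62 CPM (SD, n = 3) in the 3 groups, and it was called lower with siCDO1C, a call lost in DESeq2 (adjusted p = 0.0526) and in 5 of the 6 edgeR fits that left out 1 library, all but that without siCDO1C replicate 2. COL1A1, a collagen gene on both the fibroblast and the thrombospondin partner lists, was higher with siCDO1A (log2 fold change 0.76), a call lost under the replicate block (edgeR, adjusted p = 0.063). The call of COL1A1 was also lost in DESeq2 (adjusted p = 0.0618) and in 3 of the 6 edgeR fits that left out 1 library. The part of such cells in the results was not tested. In bulk RNA, fewer cells of a type and less RNA per cell cannot be told apart.

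Promoter windows of 300 bases, from 250 before to 50 after the annotated start, were found in RefSeq (GRCh38.p14) for 5 of the 6 genes, and F2R had none in that table. The windows of THBS1 and F2RL1, per kilobase the most abundant gene and receptor in the mean of the 9 libraries (F2RL1 below F2R in siCDO1C cells), and that of F2RL2, which gave 1 read in all, are shown as the ends of the range of levels. Capitals mark the GC box (GGGCGG, or CCGCCC on the other strand) and the AP-1 site (TGACTCA, or TGAGTCA on the other strand). They lie at chr15:39580829-39581128 (plus strand) for THBS1, chr5:76818780-76819079 (plus strand) for F2RL1 and chr5:76623354-76623653 (minus strand) for F2RL2, and each is written 5′ to 3′ on the strand of its gene.
THBS1 promoter: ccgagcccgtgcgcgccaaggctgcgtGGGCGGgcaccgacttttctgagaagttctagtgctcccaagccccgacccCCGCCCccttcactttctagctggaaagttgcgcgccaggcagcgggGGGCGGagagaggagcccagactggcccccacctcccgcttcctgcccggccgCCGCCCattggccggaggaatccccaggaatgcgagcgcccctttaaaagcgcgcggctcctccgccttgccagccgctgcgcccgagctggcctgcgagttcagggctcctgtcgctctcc
F2RL1 promoter: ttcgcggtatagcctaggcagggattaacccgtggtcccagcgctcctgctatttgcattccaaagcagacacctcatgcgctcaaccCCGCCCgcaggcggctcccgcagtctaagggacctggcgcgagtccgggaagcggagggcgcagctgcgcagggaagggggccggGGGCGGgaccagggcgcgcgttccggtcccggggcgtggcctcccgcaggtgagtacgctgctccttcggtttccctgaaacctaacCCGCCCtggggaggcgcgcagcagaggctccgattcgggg
F2RL2 promoter: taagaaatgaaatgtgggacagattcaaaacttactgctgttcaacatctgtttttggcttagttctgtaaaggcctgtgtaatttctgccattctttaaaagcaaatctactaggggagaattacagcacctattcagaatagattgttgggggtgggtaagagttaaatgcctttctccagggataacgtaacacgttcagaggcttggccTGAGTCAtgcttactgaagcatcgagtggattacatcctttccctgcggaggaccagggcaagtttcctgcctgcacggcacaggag
The GC content was 70% for THBS1, 69% for F2RL1, 67.3% for F2RL3, 65% for RASGRP2 and 44.7% for F2RL2, against a median of 58.7% over the promoters of the table. There were 4 GC boxes in the window of THBS1, 3 in that of F2RL1 and 1 in that of RASGRP2, and no match in those of F2RL2 and F2RL3. Of 35116 promoters of the same length, 45.0% held this motif on either strand. The window of F2RL2 held 1 AP-1 site, which 4.95% of all promoters hold, and the other 4 windows held none. A TATA box (TATAAA on either strand, in 11.5% of promoters) was found in none of the 5. A CCAAT box (CCAAT on either strand, in 34.6% of promoters) was found in those of THBS1 and F2RL3, where 1 match each was present. These matches describe letters and not bound sites, and the motifs searched did not overlap one another in the windows shown.

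Per kilobase of gene, THBS1 was the most abundant of the 6 genes, with 63.3 RPKM (CPM per kilobase of the deposited gene length) over the 9 libraries, the 590th level of the 15555 genes tested. F2RL1 followed with 15.2 RPKM, F2R with 12.1 RPKM and RASGRP2 with 0.161 RPKM, 97.7% of the way down the ranking. F2RL3 had 0.0273 RPKM and F2RL2 0.00267 RPKM. The order of the receptors was not the same in each group, because F2R lay below F2RL1 in siCtrl cells and above it in siCDO1C cells.

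**Figure D1:**
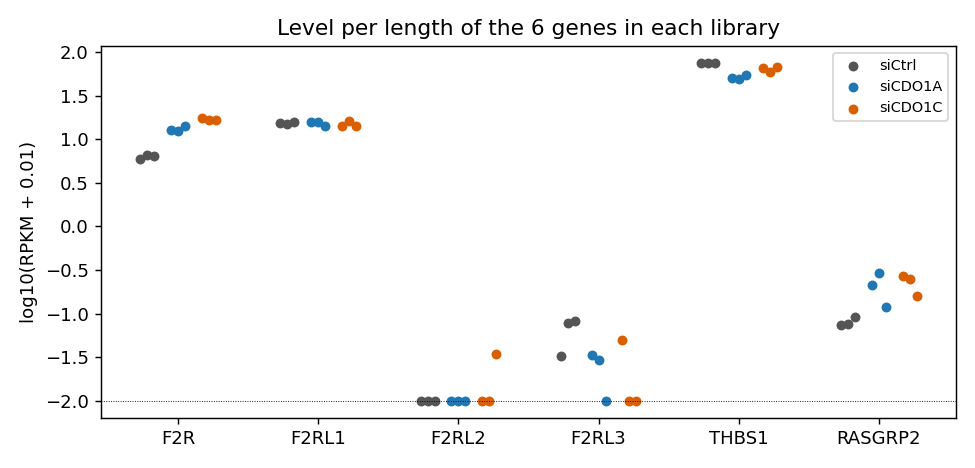
Level per length of the 6 genes in each of the 9 libraries, as log10 of RPKM plus 0.01, with 1 point per library and a dotted line where a count of 0 falls. THBS1 lies highest, F2R and F2RL1 lie close together, and F2RL2 lies on the line in 8 of 9 libraries.

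F2R (ENSG00000181104, chromosome 5 of GRCh38, 76716043 to 76735781, plus strand) was higher in every siRNA library than in every siCtrl library. Its counts were 308, 339 and 414 in siCtrl, 635, 734 and 881 in siCDO1A and 1034, 884 and 821 in siCDO1C libraries. These correspond to levels of 24.0, 27.0 and 25.7 CPM in siCtrl, 52.1, 50.2 and 58.2 CPM in siCDO1A and 70.8, 67.3 and 67.7 CPM in siCDO1C libraries. The 3 groups did not overlap, so siCDO1C cells had the highest levels in all 3 batches, as they would under any pairing. How many of all genes tested separate from siCtrl in this way was not counted. The mean levels were 25.6 ± 1.5 CPM in siCtrl, 53.5 ± 4.19 CPM in siCDO1A and 68.6 ± 1.95 CPM in siCDO1C cells (SD, n = 3 each), 2.09-fold and 2.67-fold the siCtrl level in the edgeR fits. The log2 fold change was 1.07 with siCDO1A (95% interval 0.89 to 1.24), and between 0.88 and 1.16 within the batches. With siCDO1C it was 1.42 (1.24 to 1.60), and between 1.30 and 1.54 within the batches. An antisense gene that overlaps the start of F2R, AC025188.1, had from 0 to 3 counts per library.

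The comparison of the CDO1 siRNAs with each other played no part in choosing F2R. There, the level of F2R was 1.28-fold higher with siCDO1C (log2 difference 0.35, 95% interval 0.17 to 0.54), a difference not past the threshold in edgeR's quasi-likelihood test after Benjamini-Hochberg adjustment over all genes (adjusted p = 0.125, and from 0.0170 to 0.687 over the alternatives). Within the 3 batches the difference was 0.44, 0.42 and 0.22. The libraries of the 2 siRNAs did not overlap, so any pairing of them gives positive differences, and their shared sign adds nothing. With the replicate number as a block the adjusted p of the edgeR test was 0.0530. Without siCDO1C replicate 2 the difference was past the threshold (log2 difference 0.37, adjusted p = 0.0170). Of all genes tested, 12.7% had siCDO1C libraries that did not overlap the siCDO1A libraries.

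The annotated 3′ UTR of F2R holds GCAGTACA, an 8-base word that an earlier analysis of these same libraries picked out, and it is printed in capitals because it sets F2R apart from the other 5 genes. In the transcript ENST00000319211 it takes bases 1312 to 1319 of a 3′ UTR of 2267 bases, in the following context.
F2R 3′ UTR site: atgaaaacaatGCAGTACAggacatatatt
No annotated 3′ UTR of F2RL1, F2RL2, F2RL3, THBS1 or RASGRP2 holds the word. Of the 12997 genes tested with an annotated 3′ UTR, 422 (3.25%) hold it. Among these 422 genes, 106 (25.1%) were higher and 26 lower with siCDO1A, with a median log2 fold change of 0.09, and 71 (16.8%) were higher and 3 lower with siCDO1C, with a median of 0.09. Among the 12575 genes without it, 936 (7.44%) were higher and 1076 lower with siCDO1A and 257 (2.04%) were higher and 359 lower with siCDO1C, and both medians were 0.00 after rounding. Both comparisons share the siCtrl libraries, and the word was chosen on them, so these counts are a description. Between siCDO1C and siCDO1A, 2 of the 422 genes (0.474%) were higher and 0 lower. Of the 12575 genes without the word, 36 (0.286%) were higher and 30 lower. The genes with and without the word were not matched for the length of the 3′ UTR. Of 2545 mature miRNAs in RefSeq, 0 have the seed complementary to its first 7 bases (GUACUGC at bases 2 to 8).

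F2RL1 (ENSG00000164251, chromosome 5, 76818933 to 76835315, plus strand), whose start lies 103 kb from that of F2R, had similar levels in the 3 groups. Its counts were 583, 558 and 758 in siCtrl, 566, 678 and 634 in siCDO1A and 608, 634 and 513 in siCDO1C libraries. The levels were 45.4, 44.4 and 47.1 CPM in siCtrl, 46.4, 46.4 and 41.9 CPM in siCDO1A and 41.7, 48.2 and 42.3 CPM in siCDO1C libraries. The groups overlapped, and the lowest library belonged to siCDO1C as did the highest. The log2 fold change was -0.03 with siCDO1A (95% interval -0.18 to 0.13) and -0.06 with siCDO1C (-0.24 to 0.13). Between the siRNAs the difference was -0.03 (95% interval -0.23 to 0.17) and not past the threshold (edgeR, adjusted p = 0.986), which does not show that the levels were the same.

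The balance of the expressed receptors differed between the groups accordingly. The ratio of F2R to F2RL1, both per kilobase, was 0.384, 0.442 and 0.397 in siCtrl, 0.816, 0.788 and 1.01 in siCDO1A and 1.24, 1.01 and 1.16 in siCDO1C libraries. F2R made up 28.9% ± 1.48, 46.4% ± 3.38 and 53.1% ± 2.50 (SD, n = 3 each) of the summed RPKM of the 4 receptors. The sum of F2R and F2RL1 was 21.7 ± 0.492 RPKM in siCtrl, 28.3 ± 0.265 RPKM in siCDO1A and 31.8 ± 0.967 RPKM in siCDO1C cells (SD, n = 3 each). The highest siCDO1A ratio (replicate 3) and the lowest siCDO1C ratio (replicate 2) were almost equal.

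F2RL2 (ENSG00000164220, chromosome 5, 76615482 to 76623434, minus strand) was not detected in 8 of 9 libraries and had 1 count in siCDO1C replicate 3. A count of 0 at these depths allows a level of up to 0.187 to 0.249 CPM, which is what 3 counts amount to and covers only the error of counting. The gene lies within IQGAP2 on the opposite strand, which had 737 to 1020 counts per library. F2RL3 (ENSG00000127533, chromosome 19, 16888860 to 16892606, plus strand) had 1, 3 and 4 counts in siCtrl, 1, 1 and 0 in siCDO1A and 2, 0 and 0 in siCDO1C libraries, 12 in all. Both receptors lay at or near this limit, so no fold change is given, and both are without a test.

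THBS1 (ENSG00000137801, chromosome 15, 39581079 to 39599466, plus strand) was lower in every siRNA library than in every siCtrl library. Its counts were 8825, 8549 and 10986 in siCtrl, 5641, 6604 and 7503 in siCDO1A and 8832, 7066 and 7388 in siCDO1C libraries. The levels were 688, 681 and 682 CPM in siCtrl, 463, 452 and 496 CPM in siCDO1A and 605, 538 and 610 CPM in siCDO1C libraries. The siCtrl libraries differed from each other by little (SD 3.66 CPM). The 3 groups did not overlap, so siCDO1A cells had the lowest levels in all 3 batches, as they would under any pairing. How many of all genes tested separate from siCtrl in this way was not counted. The means were 684 ± 3.66 CPM in siCtrl, 470 ± 22.9 CPM in siCDO1A and 584 ± 40.4 CPM in siCDO1C cells (SD, n = 3 each). The log2 fold change was -0.54 with siCDO1A (95% interval -0.64 to -0.44, a 1.45-fold lower level), and with siCDO1C it was -0.23 (-0.39 to -0.08, a 1.18-fold lower level). Within the batches the siCDO1A values ran from -0.59 to -0.46 and the siCDO1C values from -0.34 to -0.16. Without siCDO1C replicate 2, the log2 fold change with siCDO1C was -0.17. The genes that overlap THBS1 had few reads, with 8 to 16 counts per library for FSIP1 and at most 7 for AC037198.1.

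Set against each other, siCDO1C cells had 1.24-fold more THBS1 RNA than siCDO1A cells (log2 difference 0.31, 95% interval 0.14 to 0.48). The libraries of these siRNAs did not overlap, so the difference had this sign in 3 of 3 batches, as under any pairing. The difference was not past the threshold without the block (edgeR, adjusted p = 0.165, and from 0.00120 to 0.729 over the alternatives), whereas with the replicate number as a block it was (log2 difference 0.31, adjusted p = 0.0453). Without siCDO1C replicate 2 the difference was 0.37 (adjusted p = 0.00120). Between these siRNAs, 0.444% of all genes tested were past the threshold, and 0 of the 4 tested genes described here were. At an unadjusted p under 0.05 in edgeR there were 2 of these 4, F2R and THBS1, and DESeq2 called 1 of them, THBS1. Of all 15555 genes tested, 1190 had such an unadjusted p.

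RASGRP2 (ENSG00000068831, chromosome 11, 64726911 to 64745456, minus strand) was near the limit of detection in all groups. Its counts were 5, 5 and 8 in siCtrl, 15, 25 and 10 in siCDO1A and 23, 19 and 11 in siCDO1C libraries, with levels of 0.390, 0.398 and 0.497 CPM, 1.23, 1.71 and 0.661 CPM, and 1.58, 1.45 and 0.908 CPM. The siCtrl libraries lay below all siRNA libraries, and replicate 3 was the lowest within each siRNA. No siCtrl library reached 10 counts, so that the gene passed the filter through the siRNA libraries, in which it was higher. The log2 fold change was 1.45 with siCDO1A (95% interval 0.49 to 2.40) and 1.58 with siCDO1C (0.69 to 2.47). With the replicate number as a block, RASGRP2 was past the threshold with neither siRNA. Leaving out single libraries gave from 1.08 (without siCDO1A replicate 2) to 1.76 (without siCDO1A replicate 3) with siCDO1A and from 1.43 (without siCDO1C replicate 1) to 1.78 (without siCDO1C replicate 3) with siCDO1C. RASGRP2 was no longer past the threshold in 5 of the 6 such fits with siCDO1A and in 4 of the 6 with siCDO1C. The siRNAs did not separate (log2 difference 0.14, 95% interval -0.68 to 0.96, edgeR adjusted p = 0.984), and the sign of this difference turned without siCDO1A replicate 3 or siCDO1C replicate 1.

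By the same rule, 2 of the 4 tested genes (F2R and RASGRP2) were called higher and 1 (THBS1) lower with siCDO1A, where 7.37% of all genes tested were called higher and 7.48% lower. With siCDO1C, F2R and RASGRP2 were called higher and none lower, where the shares of all genes were 2.27% and 2.5%. With each siRNA, 3 of the 4 (F2R, THBS1 and RASGRP2) had libraries that did not overlap those of siCtrl. The share of all genes tested that separate from siCtrl in this way was not counted. Since these contrasts chose 3 of the genes, nothing is read from the numbers called or from the separation.

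**Figure D2:**
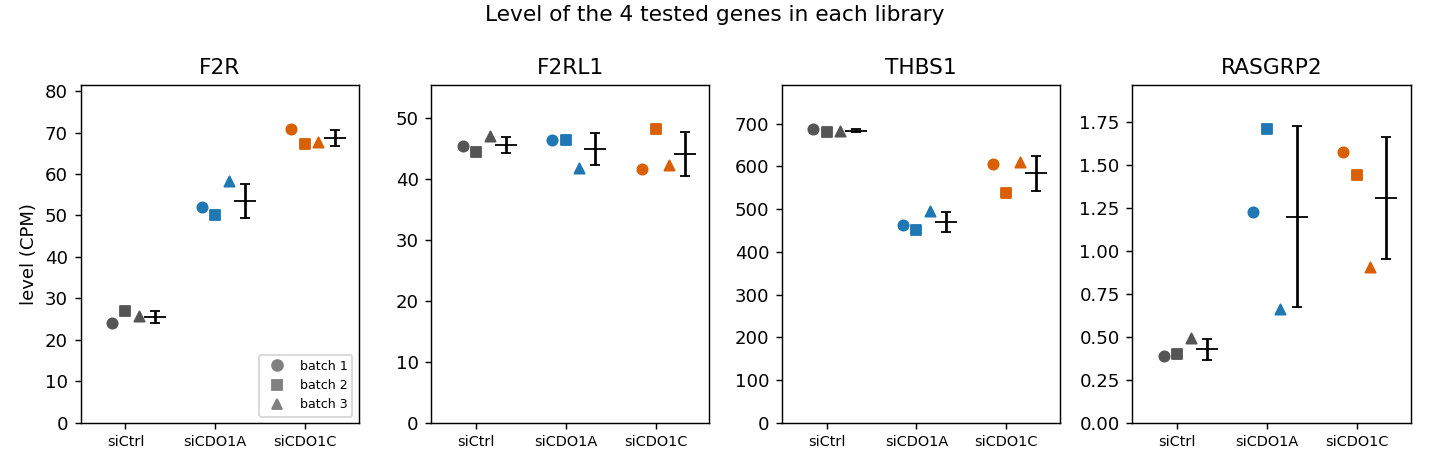
Level in CPM of the 4 tested genes in each library, with the batch given by the marker and the group mean and SD (n = 3) beside the points. All 3 groups are separate for F2R and THBS1 and overlap for F2RL1, and the RASGRP2 levels stay below 2 CPM.

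**Figure D3:**
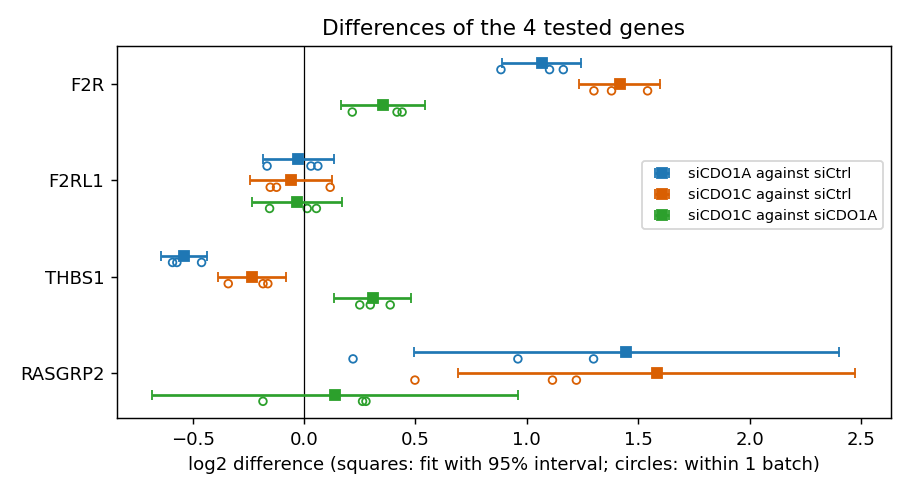
Log2 differences of the 4 tested genes in the 3 comparisons, with squares and bars for the edgeR fit and its 95% interval and open circles for the ratio within each batch (pseudocount 0.5 CPM). The intervals of F2RL1 span 0 in all 3 comparisons, and those of RASGRP2 are the widest.

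The proteases that can cut the receptors were followed as a list of 27 genes, of which 9 were expressed. With siCDO1A, 3 were higher, 1 lower and 5 not past the threshold, and with siCDO1C 1 was higher and 8 not past it. Called genes made up 44.4% and 11.1% of the 9, against 14.8% and 4.77% of all genes tested with siCDO1A and siCDO1C. KLK4, a kallikrein secreted by prostate epithelium, rose with both, from 67.6 ± 2.59 CPM in siCtrl to 84.3 ± 5.26 CPM with siCDO1A (log2 fold change 0.32) and 104 ± 11.5 CPM with siCDO1C (0.61; SD, n = 3 each). KLK2, a close relative of KLK3 and the most abundant of the list at 520 RPKM, rose with siCDO1A by 0.34 on the log2 scale and had a value of 0.09 with siCDO1C. Reads of such similar kallikreins could have been split in the counting. The median log2 fold change of the expressed proteases was 0.10 with siCDO1A and 0.17 with siCDO1C, against 0.01 and 0.00 over all genes tested.

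Of the 16 cofactors and inhibitors of these proteases, 9 were expressed and 0 were called with either siRNA, and the 9 log2 fold changes ran from -0.33 to 0.08 for siCDO1A and from -0.38 to 0.09 for siCDO1C. At an unadjusted p under 0.05 in edgeR there were also 0, and DESeq2 called 0. Of all 15555 genes tested, 4347 had such an unadjusted p with siCDO1A and 2890 with siCDO1C. In a list of 9 genes, with 14.8% and 4.77% of all genes called, 0 adjusted calls are near the background. The most abundant was SPINT2, an inhibitor of membrane-bound serine proteases such as hepsin and matriptase, at 68.5 RPKM and with log2 fold changes of 0.02 and -0.07.

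Of the 34 G proteins and effectors that act below the receptors, 32 were expressed. With siCDO1A, 3 were higher, 5 lower and 24 not past the threshold, and with siCDO1C 1 was higher and 31 were not past it, which is 25% and 3.13% of the list against 14.8% and 4.77% of all genes tested. No gene of this list was called with both. RHOA, a GTPase that acts below G12 and G13 proteins and the most abundant of the list at 198 RPKM, had log2 fold changes of -0.02 and 0.00. All 27 genes of receptor desensitization and trafficking were expressed, of which 1 was higher and 2 lower with siCDO1A and 1 higher with siCDO1C. These shares of 11.1% and 3.70% are near those of all genes tested, 14.8% and 4.77%. At an unadjusted p under 0.05 in edgeR there were 14 and 4 of the 27, against 4347 and 2890 of the 15555 genes tested. RGS4, which speeds the GTPase activity of Gq and Gi proteins, rose with both siRNAs from a low level, 2.93 ± 0.190 CPM in siCtrl, 5.37 ± 1.29 CPM with siCDO1A and 7.06 ± 0.742 CPM with siCDO1C (log2 fold changes of 0.87 and 1.26; SD, n = 3 each). TMED2, a cargo receptor of the early secretory pathway and the most abundant of this list at 129 RPKM, fell with siCDO1A by 0.18 on the log2 scale, a call lost under the block (adjusted p = 0.0955 in edgeR) and in 4 of the 6 fits that left out 1 library (each but those without siCDO1A replicate 3 or siCtrl replicate 3), and had a value of -0.24 with siCDO1C.

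Genes induced through SRF and YAP, transcriptional regulators that respond to tension in the actin skeleton, were called in numbers near the share of all genes. Of 22 genes, 14 were expressed, of which 2 were lower with siCDO1A and 1 with siCDO1C, and 0 were higher (2 and 0 at an unadjusted p under 0.05 in edgeR). In either direction, 6 and 3 of the 14 had such an unadjusted p, against 4347 and 2890 of the 15555 genes tested. Calls in either direction made up 14.3% and 7.14% of the list, against 14.8% and 4.77% of all genes tested. No gene was called with both siRNAs, and AMOTL1, the most abundant at 17.9 RPKM, had log2 fold changes of -0.07 and -0.06. The median of the list was -0.14 with siCDO1A and -0.11 with siCDO1C.

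Of the 5 thrombospondins, 3 were expressed, and THBS1 was the only one called, with siCDO1A, in a contrast that had a part in choosing it. Among its receptors and partners, 24 of 28 genes were expressed. With siCDO1A, 4 were higher and 5 lower, and with siCDO1C 3 were higher and 5 lower, while 15 and 16 were not past the threshold. The called shares were 37.5% and 33.3%, against 14.8% and 4.77% of all genes tested. Called with both siRNAs were 2 higher and 4 lower, where 1.9% of all genes tested were higher and 1.72% lower with both. The 2 that rose were TGFB2, a ligand of the TGF-beta family, and ADAMTS1, a secreted metalloprotease. TGFB2 had 4.20 ± 0.563, 7.30 ± 0.287 and 9.57 ± 1.20 CPM in siCtrl, siCDO1A and siCDO1C cells (log2 fold changes of 0.80 and 1.18), and ADAMTS1 had 84.0 ± 1.45, 101 ± 5.65 and 122 ± 7.25 CPM (0.27 and 0.53; SD, n = 3 each). Of those that fell, FBN1, which encodes the microfibril protein fibrillin-1, had 16.5 ± 1.43, 8.40 ± 0.852 and 10.9 ± 1.28 CPM (log2 fold changes of -0.98 and -0.61; SD, n = 3 each). SDC4, a heparan sulfate proteoglycan of the cell surface, had log2 fold changes of -0.45 and -0.32. CALR, a calcium-binding chaperone of the endoplasmic reticulum that also acts with LRP1 at the cell surface, fell by 0.22 and 0.50 on the log2 scale and was the most abundant partner at 605 RPKM. ITGB1, the beta subunit of many integrins, had log2 fold changes of -0.22 and -0.25.

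Of the 4 RASGRP genes, RASGRP2 passed the filter on low counts, through its siRNA libraries, and RASGRP3 did not, although it had 6 to 18 counts per library and its lowest count was above the 5 counts of RASGRP2 in siCtrl replicates 1 and 2. Of the 38 genes of the Rap and Ras cycle, 37 were expressed, of which 3 were higher and 8 lower with siCDO1A, and 2 were higher and 1 lower with siCDO1C. These are 29.7% and 8.11% of the list, against 14.8% and 4.77% of all genes tested. TLN1, which encodes talin-1, the protein that binds and activates integrins below Rap1, rose from 152 ± 2.96 CPM in siCtrl to 303 ± 7.86 CPM with siCDO1A (log2 fold change 1.00) and 275 ± 46.6 CPM with siCDO1C (0.85; SD, n = 3 each). RAP2B, a GTPase related to Rap1, rose by 0.37 and 0.38 on the log2 scale. RAP1GAP, which switches Rap1 off and was the most abundant of this list at 41.1 RPKM, fell by 0.27 and 0.28. No gene of any of these lists was past the threshold between siCDO1C and siCDO1A, where 0.444% of all genes tested were. Of the 158 expressed genes on the lists, 22 had an unadjusted p under 0.05 in edgeR, and DESeq2 called 2. Of all 15555 genes tested, 1190 had such an unadjusted p.

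With the replicate number as a block, calls were lost for ITGB1 with both siRNAs (adjusted p = 0.0591 and 0.109 in edgeR) and, with siCDO1C, for SDC4 (adjusted p = 0.0557), RAP2B (adjusted p = 0.0663) and RAP1GAP (adjusted p = 0.0669). With siCDO1C, the calls of these 4 genes were each lost in 5 of the 6 fits that left out 1 library, all but that without siCDO1C replicate 2, and the call of FBN1 in 2 (without siCtrl replicate 1 or 3). With siCDO1A, that of ITGB1 was lost in 4 and those of RAP2B in 2. The calls of KLK4, RGS4, TGFB2, ADAMTS1, CALR and TLN1 with both siRNAs were kept under the block and in each of these fits.

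**Figure D4:**
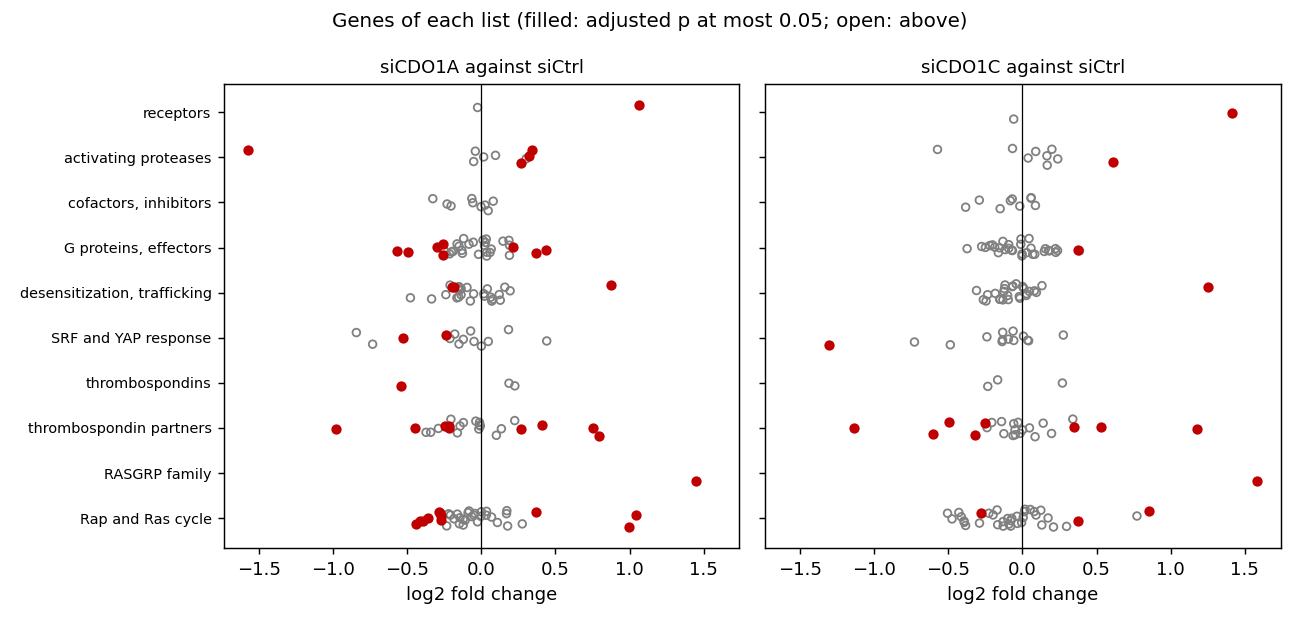
Log2 fold change of each expressed gene of the 10 lists with siCDO1A and with siCDO1C against siCtrl, filled where the adjusted p was at most 0.05. Most genes lie near 0, and RGS4, TGFB2 and TLN1 are among those filled on the right of both panels. F2R and RASGRP2 are filled there too, but these contrasts chose them, so their filling is a description and not a test.

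F2R, F2RL1 and F2RL2 are neighbours on the long arm of chromosome 5. Within 1 Mb of F2R the count table holds 45 genes, of which 14 were expressed, 12 of them besides F2R and F2RL1. With siCDO1A, 0 of these 12 were called (edgeR, with 1 at an unadjusted p under 0.05 and 0 in DESeq2), and with siCDO1C 1 was, SV2C, a synaptic vesicle protein gene at 1.58 CPM, which was lower (log2 fold change -1.19, standard error 0.313, edgeR adjusted p = 0.0423) and was named after its value was seen. DESeq2 did not call SV2C, and whether it gave this gene an adjusted p is not stated here. The edgeR call was lost in 5 of the 6 fits that left out 1 library, all but that without siCDO1C replicate 2. IQGAP2, the scaffold protein gene that contains F2RL2, had log2 fold changes of 0.01 and -0.09. With siCDO1A and siCDO1C, 1 and 3 of the 12 had an unadjusted p under 0.05 in edgeR. Of the 15555 genes tested, 4347 and 2890 did. With 14.8% and 4.77% of all genes called, 0 and 1 called of 12 are near the background, and nothing is read from these counts about F2R.

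**Figure D5:**
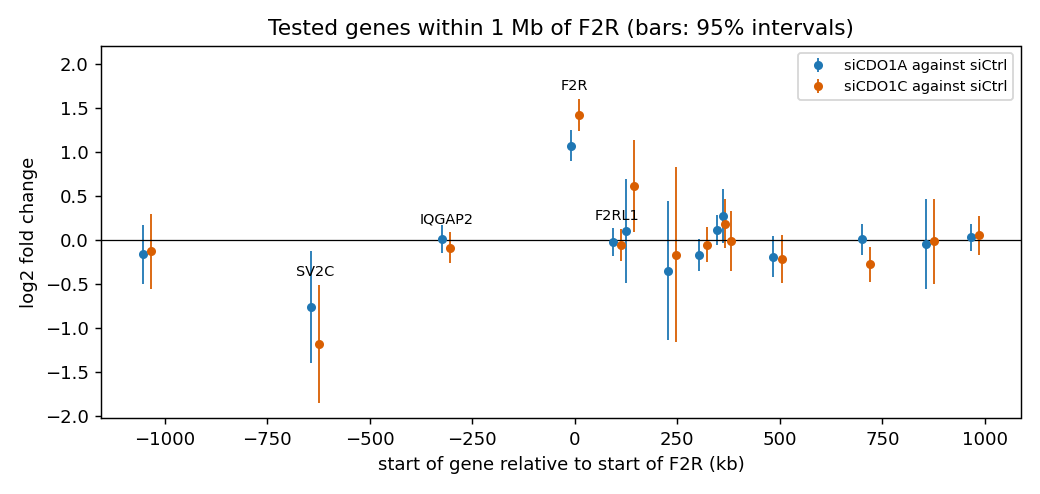
Log2 fold change with its 95% interval of the 14 expressed genes within 1 Mb of F2R, against the distance of their start from that of F2R in kb (the points of the 2 siRNAs are set slightly apart). F2R lies above 1 with both siRNAs, and F2RL1 and IQGAP2 lie near 0.

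Over the 9 libraries, the genes whose level followed that of F2R most closely, among 14479 genes with a mean of at least 1 CPM, were IVNS1ABP (Pearson r = 0.995 of log2 levels), WHAMM (0.99), ALCAM (0.989), SELENOP (0.984) and UBE2G2 (0.978). These points share the 3 groups and their libraries, and r describes them without a test. ALCAM, a cell adhesion molecule, had a range of levels like that of F2R, with 18.2 ± 0.692 CPM in siCtrl, 34.7 ± 1.68 CPM in siCDO1A and 45.6 ± 1.64 CPM in siCDO1C cells. IVNS1ABP, an actin-binding protein of the kelch family, had 77.8 ± 2.78, 99.5 ± 3.82 and 112 ± 0.928 CPM, and WHAMM, which promotes actin nucleation, 24.4 ± 0.764, 31.8 ± 1.86 and 34.5 ± 0.507 CPM (SD, n = 3 each). SELENOP, a secreted selenoprotein, rose from 17.9 ± 0.816 CPM in siCtrl to 32.6 ± 2.04 CPM with siCDO1C, and UBE2G2, a ubiquitin-conjugating enzyme of the endoplasmic reticulum, from 194 ± 1.70 CPM to 239 ± 8.14 CPM (SD, n = 3 each). The genes most like THBS1 were ITGB8 (r = 0.982), HS6ST2 (0.982) and ADAMTS3 (0.977). ITGB8, an integrin subunit that takes part in the activation of latent TGF-beta, had 33.1 ± 1.33 CPM in siCtrl, 19.6 ± 2.04 CPM in siCDO1A and 25.6 ± 1.82 CPM in siCDO1C cells (SD, n = 3 each), the same order of groups as THBS1. HS6ST2, a heparan sulfate sulfotransferase, had 119 ± 0.882, 93.2 ± 2.14 and 105 ± 4.63 CPM, and ADAMTS3, a procollagen protease, 111 ± 2.08, 82.7 ± 7.66 and 98.7 ± 7.70 CPM (SD, n = 3 each).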

How the data were processed

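Poly(A) RNA of VCaP cells was made into strand-specific libraries and sequenced from both ends. The authors had low-quality reads removed, counted reads per gene with featureCounts and deposited the counts as whole numbers without normalization. The submitters' processing notes name HISAT2 2.0.5 and hg38. How strand and multiply mapped reads were handled is not given in the sources used here. The gene length was used as deposited. Of the table, 3 columns that match no sample were not used, and columns of names and coordinates served only to identify genes.

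Genes were kept by filterByExpr of edgeR 4.0.16 (minimum count 10, over 9 libraries), scaled with TMM and tested with the quasi-likelihood test (robust, R 4.3.3) in the 6 libraries of each comparison. P-values were adjusted by Benjamini-Hochberg over all 15555 genes, and at most 0.05 was called. The standard error was the log2 fold change over the root of F. The scripts were tested on simulated data. With 3 libraries against 3, an exact permutation test cannot go below 0.1. The alternatives were DESeq2 1.42.0, 1 fit of all libraries, RLE size factors, both other filters on low counts, the replicate block and leaving out each library.

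The labels give batch numbers equal to the replicate numbers, and the numbers were taken as pairs for that reason. The deviations of same-numbered libraries from their group means correlated, over 11337 genes, at -0.202, 0.0527 and -0.133 for number 1, at -0.0901, -0.00729 and 0.127 for number 2, and at -0.376, -0.277 and 0.378 for number 3 (siCtrl with siCDO1A, siCtrl with siCDO1C, siCDO1A with siCDO1C). The methods of the study use no block, so the block is the alternative.

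The genes described and the lists, written by hand, were chosen with earlier results of these data known. Named are the 6 genes, CDO1, from each list at most 3 genes called higher and 3 lower with both siRNAs and its most abundant gene, genes on 5q called with both siRNAs, and the 5 and 3 genes most like F2R and THBS1. A marker gene that this rule names is not reported here.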

Additional observations from a re-analysis of the deposited data

How the results depend on the processing

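Over the 12 alternatives, the log2 fold change of F2R ranged from 1.00 to 1.11 with siCDO1A and from 1.38 to 1.46 with siCDO1C, and that of THBS1 from -0.58 to -0.51 and from -0.27 to -0.17. These contrasts chose both genes, so the ranges are a description. RASGRP2 had log2 fold changes from 1.08 to 1.76 with siCDO1A when single libraries were left out. With about 5 to 25 counts per library, depth limits what can be said of RASGRP2, and F2RL2 and F2RL3 had too few counts for any test. The replicate block changed no call of the 6 genes other than those given with them. The cause of the changes below was not tested.

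Between siCDO1C and siCDO1A, F2R was past the threshold in 1 fit of all 9 libraries (log2 difference 0.36) and without a filter on low counts (0.36), and from 0.31 to 0.43 when single libraries were left out. THBS1 was past it in the fit of all 9 libraries (0.31), in DESeq2 (0.31), without a filter (0.32) and with the replicate block (0.31), and from 0.28 to 0.37 when single libraries were left out. F2RL1 ranged from -0.10 to 0.0078, positive without siCDO1C replicate 1, and RASGRP2 from -0.15 to 0.51, negative without siCDO1A replicate 3 (-0.15) and without siCDO1C replicate 1 (-0.02).

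The number of genes called with siCDO1A was 1369 in the fit of all 9 libraries and 1358 with the replicate block, and 1292 (without siCtrl replicate 2) to 3454 (without siCDO1A replicate 3) when single libraries were left out. With siCDO1C it was 263 (without siCtrl replicate 3) to 2068 (without siCDO1C replicate 2). Between the siRNAs it was 128 in the fit of all 9 libraries, 104 in DESeq2, 153 without a filter, 121 with the block, and 18 (without siCDO1A replicate 2) to 447 (without siCDO1C replicate 2).

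Of the lists with siCDO1A, the fit of all 9 libraries called 5 genes of the G proteins, 1 of desensitization, 0 of the RASGRP genes and 7 of the Rap and Ras cycle. The block called 1 of desensitization, 1 of the SRF and YAP response, 0 of the RASGRP genes and 7 of the Rap and Ras cycle. DESeq2 gave RASGRP2 no adjusted p with either siRNA, and the filter of 10 counts in every library left it out. Both settings therefore called 0 RASGRP genes without testing that call. With siCDO1C, the fit of all 9 libraries called 4 of the G proteins, 2 of the SRF and YAP response and 5 of the Rap and Ras cycle, and no filter called 3, 2 and 7. DESeq2 called 2 of the G proteins, 0 of the SRF and YAP response and 0 of the 5q genes. The filter of 10 counts called 0 of the SRF and YAP response, and the block 0 RASGRP genes. The SRF and YAP gene called in the main fit had no adjusted p in DESeq2 and was left out by that filter. Between the siRNAs, the fit of all 9 libraries and no filter each called 1 receptor, 1 thrombospondin (THBS1) and 1 of its partners, with 1 and 3 of the G proteins, and DESeq2 and the block each called 1 thrombospondin and 1 partner. When single libraries were left out, siCDO1A called 0 to 1 of the cofactors, 6 to 14 of the G proteins, 1 to 11 of desensitization, 1 to 4 of the SRF and YAP response, 0 to 1 RASGRP genes, 6 to 15 of the Rap and Ras cycle and 0 to 2 of the 5q genes, with the highest number of each without siCDO1A replicate 3. With siCDO1C the ranges were 0 to 8 for the G proteins, 1 to 5 for desensitization, 0 to 1 for the SRF and YAP response, 0 to 1 for the thrombospondins, 3 to 9 for their partners, 0 to 1 for the RASGRP genes, 1 to 6 for the Rap and Ras cycle and 0 to 3 for the 5q genes. Between the siRNAs they were 0 to 4 for the G proteins, 0 to 3 for the partners, 0 to 2 for the proteases and 0 to 1 for the receptors, thrombospondins, desensitization and the Rap and Ras cycle, each highest without siCDO1C replicate 2. Of the 5 genes most like F2R, 3 to 5 were kept when single libraries were left out, and of the 3 most like THBS1, 0 (without siCDO1C replicate 2) to 3.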

Other observations

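Of the prostate luminal markers, KLK3 and FOLH1 fell with both siRNAs, KLK3 by 0.38 and 0.43 and FOLH1 by 0.28 and 0.27 on the log2 scale. With siCDO1C, the call of FOLH1 was lost under the replicate block (edgeR, adjusted p = 0.0729) and in 5 of the 6 fits that left out 1 library and that of KLK3 in 4 of them. With siCDO1A, the call of KLK3 was lost in 1 (without siCtrl replicate 3, adjusted p = 0.0544 in edgeR).

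The qPCR primer pair listed in the study for F2R is letter for letter the pair listed for UBTFL1. The forward primer (22 bases) is agcgcatggtagagattggcag and the reverse primer (23 bases) is caggtgacaaagtcttgagccag. Neither was found in the 2 annotated transcripts of F2R, and both were found in the 1 annotated transcript of UBTFL1 (GENCODE, GRCh37 lift). The counts described here do not depend on these primers.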
